A study of Mus musculus with 8 samples.

Results

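A set of 10 genes of the two-cell-like state was examined across the RNA-seq libraries of wild-type and Klf4-knockout mouse embryonic stem cells. They were taken by symbol from the deposited counts of 52636 Ensembl gene identifiers and comprised Zscan4c, Zscan4d, Zscan4f, Usp17la, Usp17lb, Usp17lc, Zfp352, Gm8300, Tcstv1 and Tcstv3, and each of the 10 matched a single identifier. Counts were also summed over the named copies of a family, which were 9 for Zscan4, 5 for Usp17l and 2 for Tcstv. Members and lists were picked with earlier results of these data known, so what follows describes them and is no independent test.

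The cells were E14, an embryonic stem cell line grown from the mouse blastocyst, either unmodified (WT) or lacking KLF4 (KO), a zinc finger transcription factor of the pluripotency network. RNA-seq comprised 2 WT and 2 KO libraries, and HiChIP for RNA polymerase II, which records contacts between genomic sites bound by that enzyme, was deposited as 1 pooled file per genotype. The labels give both genotypes the same culture, on gelatin in serum with LIF, and describe it once with the MEK inhibitor PD0325901 and the GSK3 inhibitor CHIR99021 and once without them. The sources used here do not say how the knockout was made or whether the KO libraries came from 1 edited clone.

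A small and changing minority of cells in such cultures passes through the two-cell-like state, in which genes of the mouse embryo at the onset of zygotic transcription are switched on for a short time. The transcription factor DUX, encoded by Duxf3, is known to start this programme, DPPA2 and DPPA4 act above it, and chromatin proteins that silence endogenous retroviruses hold it back. ZSCAN4 proteins, which give the state one of its best-known markers, bind DNA through zinc fingers and have been linked to telomere lengthening.

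The 4 libraries held 8287497 to 9762190 gene counts, and the libraries of each genotype differed by more than sampling noise. Klf4 (ENSMUSG00000003032) had 2882 and 2421 counts in WT and 0 in both KO libraries, which matches the labels. The 4 Y-linked genes Eif2s3y, Ddx3y, Uty and Kdm5d were at 0 counts in both KO libraries as well, with 845 and 769 counts of Eif2s3y in WT, so the KO libraries differed from WT in more than Klf4. Stem cell markers were abundant, with 6334 to 8331 CPM per library summed over 8 genes such as Pou5f1 and Nanog, of which Utf1 was called higher in KO (log2 fold change 2.38, edgeR FDR 0.0052). CPM denotes counts scaled to the TMM-adjusted library total. Of 10 fibroblast and feeder markers, Lum, Postn and S100a4 were at 0 counts in every library, and the list summed to 27.6 and 28.4 CPM in WT and 26.5 and 19.7 CPM in KO. Trophectoderm markers summed to 102.4 and 120.0 CPM in WT and 155.9 and 82.7 CPM in KO, with Tpbpa at 0 throughout. Hand1, with 2 counts in each WT library and 20 and 12 in KO, was called higher in KO (log2 fold change 3.07, edgeR FDR 0.039). DESeq2 and limma voom did not call Hand1. Primitive endoderm markers summed to 501.5 and 472.5 CPM in WT and 176.0 and 202.9 CPM in KO. Most of the WT sum was Sparc (mean 265.4 CPM in WT and 89.35 CPM in KO) and Lama1 (200.2 and 55.4 CPM). Of 6 tested, these were called lower, and Gata6 (0.38 and 2.92 CPM) and Col4a1 (13.0 and 36.5 CPM) higher. Hand1 and Gata6 reached the test through their KO counts alone and had to differ to be there. The lower sum follows Sparc and Lama1 and not the markers as a set. It runs beside the fall of the genes below, and its part in the result was not tested.

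Transcripts of the Zscan4 genes were about 3-fold less abundant in KO. Zscan4c, Zscan4d and Zscan4f lie in 1 array on chromosome 7 (mm10), Zscan4c at 11005745 to 11010547, Zscan4d at 11161643 to 11166148 and Zscan4f at 11397915 to 11402318. Their promoters, printed because they show how alike the copies are, come from RefSeq (GRCm38.p6) and run from 250 bases before to 50 bases after the annotated start, 5′ to 3′ on the gene's strand (Zscan4c chr7:11005495-11005794, plus strand; Zscan4d chr7:11166099-11166398, minus strand). Capitals mark TATAAA, the letters of a TATA box, and further on those of a CCAAT box.
Zscan4c: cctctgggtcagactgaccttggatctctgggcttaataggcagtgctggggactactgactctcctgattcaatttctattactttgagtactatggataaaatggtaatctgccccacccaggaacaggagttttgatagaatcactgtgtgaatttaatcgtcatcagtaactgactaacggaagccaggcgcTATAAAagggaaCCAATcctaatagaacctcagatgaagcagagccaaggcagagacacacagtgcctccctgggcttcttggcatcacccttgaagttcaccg
Zscan4d: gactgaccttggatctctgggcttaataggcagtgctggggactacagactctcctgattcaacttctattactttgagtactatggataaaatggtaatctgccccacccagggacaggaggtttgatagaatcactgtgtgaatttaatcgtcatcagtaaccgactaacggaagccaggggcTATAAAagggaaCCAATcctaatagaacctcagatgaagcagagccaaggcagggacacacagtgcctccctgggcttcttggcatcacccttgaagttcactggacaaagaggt
Where they overlap, the promoters of Zscan4c and Zscan4d were identical at 97.2% of 289 aligned positions, those of Zscan4c and Zscan4f at 99.3% of 277, and those of Zscan4d and Zscan4f at 97.4% of 266. All 3 hold TATAAA and, at the same spacing behind it, CCAAT. The annotated start differs, so that TATAAA begins at position -54 in Zscan4c, -65 in Zscan4d and -31 in Zscan4f.

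Zscan4c had 171 and 186 counts in WT replicates 1 and 2 against 47 and 53 in the KO libraries, B first and F second here and below, or 19.2 ± 1.46 CPM in WT and 5.95 ± 0.46 CPM in KO (SD, n = 2). This was a 3.22-fold fall (log2 fold change -1.69 ± 0.33 SE, edgeR FDR 0.021). Zscan4d had 240 and 222 counts in WT and 84 and 69 in KO, which made 24.8 ± 0.96 and 9.12 ± 1.34 CPM and a 2.72-fold fall (edgeR FDR 0.029). In Zscan4f, with 86 counts in each WT library and 22 and 30 in KO, the level was 9.25 ± 0.15 CPM in WT and 3.09 ± 0.65 CPM in KO, a log2 fold change of -1.58 that missed the threshold (95% interval -2.51 to -0.64, edgeR FDR 0.053). The WT libraries sat within 1.11-fold of each other for each of these 3 genes, and both KO libraries were below both WT libraries. In a bulk sample, fewer cells in the state and less RNA per cell cannot be told apart. Without KO library B neither Zscan4c (edgeR FDR 0.066) nor Zscan4d (edgeR FDR 0.058) passed, and without KO library F Zscan4d did not (edgeR FDR 0.16).

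Reads from near-identical copies can be given to the wrong one or set aside, so the families were also tested as sums, fitted with all other genes. The 9 Zscan4 copies together had 1188 and 1131 counts in WT and 343 and 380 in KO, or 124.6 ± 2.28 and 43.0 ± 2.78 CPM. Their sum fell 2.90-fold (log2 fold change -1.53 ± 0.24 SE, edgeR FDR 0.0095), where that fit called 5.29% of all features lower. The call was lost without KO library B (edgeR FDR 0.062). With only the 3 listed copies the fall was 2.93-fold (edgeR FDR 0.012). Reads with several alignments, which the count files set apart, made up 18.0% and 18.9% of the WT and 17.8% and 17.5% of the KO records.

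The Usp17l genes encode deubiquitinating enzymes, first described as products induced by cytokines in blood cells, and the 3 listed copies showed a steeper fall. Usp17lc (103416696 to 103419174), Usp17lb (104840257 to 104842583) and Usp17la (104857016 to 104862667) lie on the far part of chromosome 7. Their promoters, from the same RefSeq table, are printed because all 3 share a stretch that matches a KLF motif. The windows are chr7:104856766-104857065 (plus strand) for Usp17la, chr7:104842534-104842833 (minus strand) for Usp17lb and chr7:103416446-103416745 (plus strand) for Usp17lc. Capitals mark the KLF letters GGGNGTGG, which read CCACACCC on the strand shown, TATAAA, and CCAAT or its reverse ATTGG.
Usp17la: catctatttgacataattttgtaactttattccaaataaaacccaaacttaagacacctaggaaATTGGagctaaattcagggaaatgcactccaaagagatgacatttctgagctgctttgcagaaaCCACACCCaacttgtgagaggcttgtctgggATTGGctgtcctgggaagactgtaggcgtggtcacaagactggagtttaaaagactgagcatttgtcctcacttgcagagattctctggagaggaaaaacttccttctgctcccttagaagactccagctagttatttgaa
Usp17lb: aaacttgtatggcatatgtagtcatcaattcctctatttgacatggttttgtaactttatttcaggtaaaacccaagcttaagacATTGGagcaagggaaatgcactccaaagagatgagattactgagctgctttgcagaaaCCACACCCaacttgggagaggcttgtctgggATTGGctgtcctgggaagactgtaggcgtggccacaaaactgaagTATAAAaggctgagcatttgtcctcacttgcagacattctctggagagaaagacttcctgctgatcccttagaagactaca
Usp17lc: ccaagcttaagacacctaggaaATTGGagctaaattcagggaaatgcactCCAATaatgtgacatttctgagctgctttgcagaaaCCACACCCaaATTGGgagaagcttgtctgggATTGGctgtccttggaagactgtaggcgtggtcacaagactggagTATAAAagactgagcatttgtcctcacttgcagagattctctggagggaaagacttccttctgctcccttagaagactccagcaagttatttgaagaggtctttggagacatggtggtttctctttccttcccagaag
Aligned positions were identical at 95% of 258 between Usp17la and Usp17lc, 87.1% of 286 between Usp17la and Usp17lb, and 86.0% of 243 between Usp17lb and Usp17lc. The KLF match begins at position -122 in Usp17la, -107 in Usp17lb and -164 in Usp17lc.

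A set of 4 motifs was searched on both strands of the 7 member promoters in the table, which has none for Gm8300, Tcstv1 and Tcstv3. GGGNGTGG was found in the 3 Usp17l promoters and in none of the Zscan4 or Zfp352 ones. Of the 27025 promoters in the table (1 per gene), 17.6% hold it. It was the only KLF spelling searched, so the windows without it may hold a KLF motif spelled otherwise. TATAAA was in 5 of the 7 (the 3 Zscan4 promoters, Usp17lb and Usp17lc) against 14.2% of all, and CCAAT in 6 of the 7 against 37.9%. The ZSCAN4 letters TGCACAC, held by 4.19% of all promoters, occurred in no member window. Related copies share these letters by descent, so the 3 Usp17l promoters are not 3 separate occurrences, and a match is a description of the sequence only. The promoters were poor in CpG, with 1 to 4 such pairs per window against a median of 7 in the table.

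Usp17la had 54 and 58 counts in WT and 7 and 4 in KO. Its level went from 6.02 ± 0.40 to 0.66 ± 0.26 CPM, a 9.02-fold fall (log2 fold change -3.17 ± 0.55 SE, edgeR FDR 0.014). For Usp17lc, counts of 67 and 57 in WT stood against 8 and 5 in KO (6.66 ± 0.65 and 0.78 ± 0.26 CPM), an 8.46-fold fall (edgeR FDR 0.013). Usp17lb went from 74 and 77 counts to 11 and 12, or from 8.12 ± 0.36 to 1.37 ± 0.07 CPM, and fell 5.88-fold (edgeR FDR 0.014). KO stood far below WT in each, with no overlap. The copies outside the list, Usp17ld and Usp17le, were not called (log2 fold change -1.95 and -1.40, edgeR FDR 0.091 and 0.098). The fall of Usp17le was no steeper than those of Zscan4c, Zscan4d and Zscan4f. Summed over 5 copies, the family had 293 and 272 counts in WT and 47 and 55 in KO and fell 4.99-fold (log2 fold change -2.32 ± 0.31 SE, edgeR FDR 0.0060), or 7.40-fold over the 3 listed copies (edgeR FDR 0.0047). No call of the 3 genes or of the 5-copy sum was lost when any 1 library was left out, but Usp17la and Usp17lc reached the test through their WT counts alone and had to differ to be there.

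Zfp352, a zinc finger gene transcribed in the early embryo (chromosome 4, 90218820 to 90225687), was close to absent from KO. It had 16 and 21 counts in WT, 1 in KO library B and 0 in KO library F, a 33.4-fold ratio of summed counts (exact 95% interval 5.63 to 1354, for counting error only, edgeR FDR 0.023). DESeq2 gave an adjusted p of 0.053, and without KO library F the log2 fold change went from -4.77 to -3.90 (edgeR FDR 0.094). Gm8300, a predicted gene on chromosome 12 (87514316 to 87518265), had 167 and 165 counts in WT and 22 and 38 in KO, which made 17.9 ± 0.14 and 3.57 ± 1.32 CPM. It fell 4.98-fold (log2 fold change -2.32 ± 0.40 SE, edgeR FDR 0.013), and its WT libraries were within 1.01-fold of each other.

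The Tcstv genes, named for their variable expression at the two-cell stage, lie on chromosome 13 and were too weakly counted for the test. Tcstv3 (120316862 to 120318261) had 8 and 18 counts in WT and 2 and 1 in KO, a ratio of 7.82 (exact 95% interval 2.40 to 40.4, for counting error only). Both KO libraries lay below both WT libraries, although the WT libraries themselves differed 2.30-fold. Tcstv1 (119893387 to 119894785) had 1 count in WT replicate 2, 1 in KO library B and 0 in the other libraries, which is under the floor of 3 counts per library in each, and no difference was detectable at this depth.

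Of the 10 genes, 7 passed the edgeR threshold as lower in KO, 1 (Zscan4f) was tested and did not pass, and 2 (Tcstv1 and Tcstv3) were not tested. None was higher. Over all 15517 tested genes edgeR called 5.34% lower in KO and 2.96% higher. DESeq2, with 6.53% of genes lower, and limma voom, with 4.98%, also called 7 members lower each. Of the 8 tested genes, 5 passed the expression filter in both genotypes and 3 (Usp17la, Usp17lc and Zfp352) passed it through the WT libraries alone, so these could hardly have passed without differing. The median log2 fold change was -2.44 over the 8 and -1.69 over the 5 that passed in both genotypes, beside 0.00 over all tested genes. Both KO libraries lay below both WT libraries in 9 of the 10, where 27.5% of all tested genes showed that order. That share covers tested genes only, while the 9 include Tcstv3, which was not tested. Neither KO library was the higher throughout. KO library F was the higher of the pair for Zscan4c, Zscan4f, Usp17lb and Gm8300, and KO library B for Zscan4d, Usp17la, Usp17lc, Zfp352, Tcstv1 and Tcstv3.

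**Figure D1:**
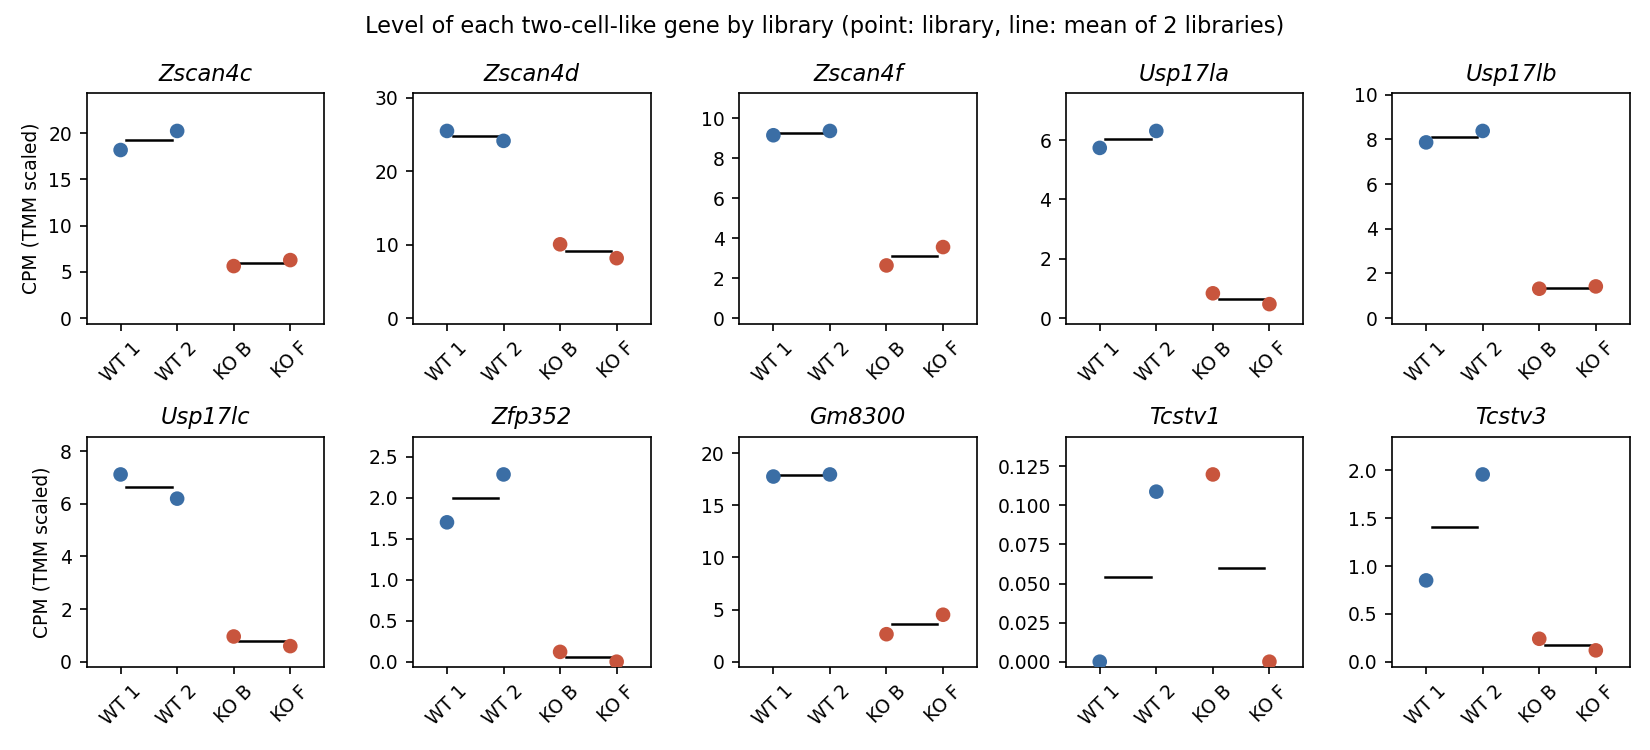
TMM-scaled CPM (y axis, from 0, own scale per gene) of the 10 genes in each library (x axis: WT replicates 1 and 2 in blue, KO libraries B and F in red); points are libraries and lines the mean of the 2 libraries of a genotype. In 9 of the 10 genes both red points lie below both blue points, and Tcstv1, with 1 count per genotype, is the other.

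Within a library, the ratio of the families does not depend on scaling. There were 24.7 and 24.1 Usp17l counts per 100 Zscan4 counts in WT and 13.7 and 14.5 in KO. The means were 24.4 ± 0.43 and 14.1 ± 0.55 (SD, n = 2), and the libraries did not overlap between genotypes. An SD from 2 libraries is itself uncertain, and the counting error of the ratio, from 47 and 55 Usp17l counts in KO, was not worked out. With 2 libraries against 2 the two-sided exact permutation test cannot go below p = 0.33, which is the value it gave. The shares of single copies were not tested. In the Zscan4 family, Zscan4d gave 19.6% and 20.2% of its counts in WT and 18.2% to 24.5% in KO, and Zscan4c 14.4% to 16.5% in WT and 13.7% to 13.9% in KO. Zscan4e held 9.51% and 5.57% in the WT libraries, with intervals that do not overlap, so libraries of 1 genotype differed as well. Zscan4-ps2 held 7.58% and 13.2% in the KO libraries, with intervals that overlap. In the Usp17l family Usp17le made up 23.2% (Wilson 95% interval 18.7% to 28.4%) and 21.3% (16.9% to 26.6%) of the family in WT and 36.2% (24.0% to 50.5%) and 47.3% (34.7% to 60.2%) in KO. The interval of KO library B, from 47 counts, overlaps those of WT. Usp17la and Usp17lc each held between 18.4% and 22.9% in WT and between 7.27% and 17.0% in KO, with intervals that overlap between genotypes. Intervals cover counting error only.

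**Figure D2:**
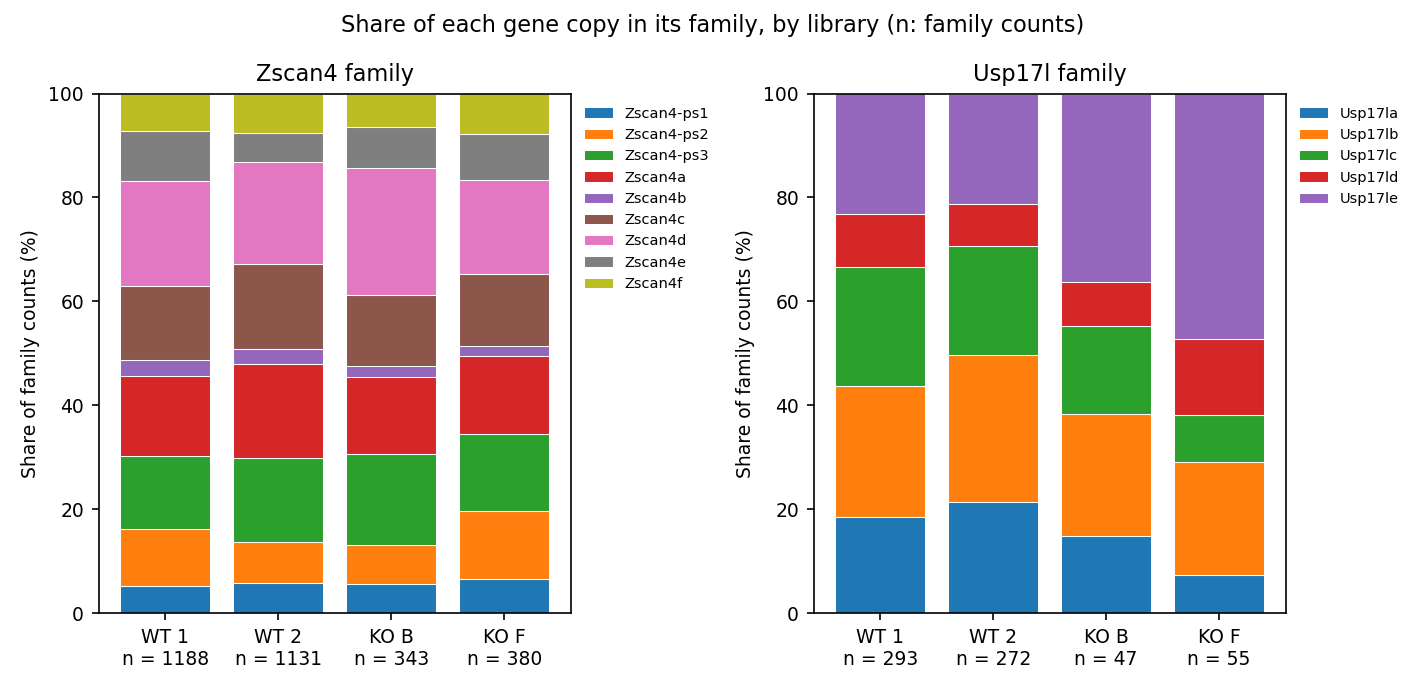
Share of family counts (y axis, percent) given to each named copy of Zscan4 (left, 9 copies) and Usp17l (right, 5 copies) in each library (x axis, with the family's counts below). The Zscan4e segment differs between the WT bars (9.51% and 5.57%), and the Usp17le segment takes 36.2% and 47.3% of the KO bars against 21.3% to 23.2% of the WT bars.

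The fall extended to other genes of the two-cell-like state. Of 44 further listed genes 41 had an identifier and 22 were tested. Of these 12 were lower (5.34% of all tested genes were), none was higher and 10 did not pass, with a median log2 fold change of -1.71, and 7 of the 41 had no count in any library. Of the 22 tested, 9 passed the expression filter through the WT libraries alone, among them Tmem92, Gm4340 and Obox6 below. These could hardly have passed without differing, so the 12 calls and the median are partly shaped by the filter. Adding the 19 untested ones, KO lay below WT without overlap in 32 of the 41, an order shown by 27.5% of all tested genes. That share leaves out untested genes, so the sets are unlike. Some of the 32 rest on few counts, such as Obox3 with 2 in each WT library and 0 in KO. Tmem92, a membrane protein gene, had 71 counts in both WT libraries and 7 and 6 in KO (log2 fold change -3.28, edgeR FDR 0.0089). Gm4340, a predicted gene, had 70 and 113 against 9 and 7 counts (log2 fold change -3.35, edgeR FDR 0.0095), and Gm5662 202 and 209 against 40 and 50 (log2 fold change -2.04, edgeR FDR 0.012). Obox6, of a homeobox family active in oocytes and early embryos, had 52 and 36 against 4 and 1 counts (log2 fold change -3.92, edgeR FDR 0.016, with -5.17 without KO library B and -3.26 without KO library F). The list includes the remaining Zscan4 and Usp17l copies, whose reads the counting could split with the members, so they are not separate evidence. Without KO library B fewer of the listed genes were called lower although more were tested, and their median log2 fold change was -1.64. The share of all tested genes called lower fell in that fit as well.

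**Figure D3:**
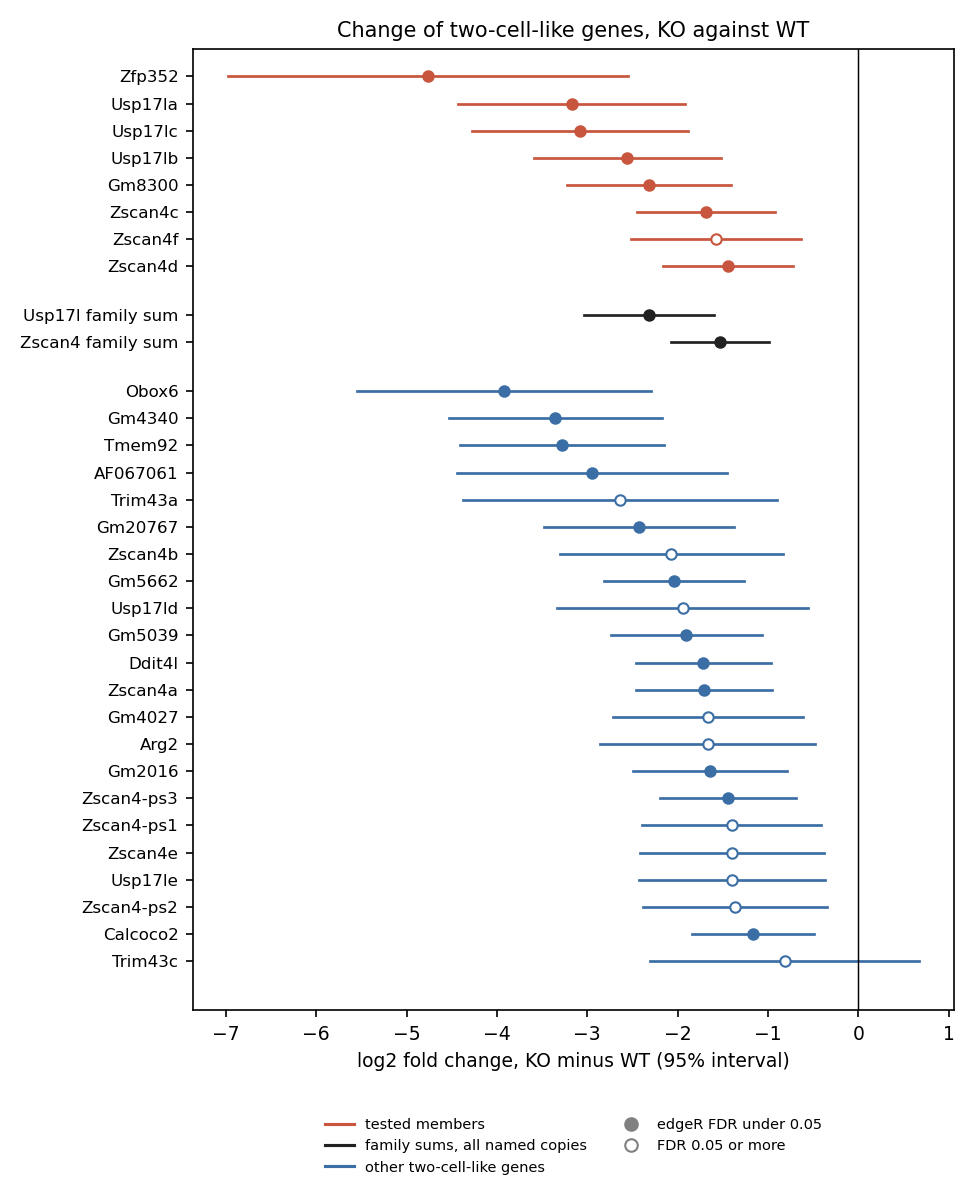
Log2 fold change, KO minus WT, with its 95% interval (x axis) for the 8 tested members (red), the sums over all named copies of Zscan4 and Usp17l (black) and 22 other tested genes of the two-cell-like state (blue); filled points have an edgeR FDR under 0.05. All points lie below 0, and the fitted value of Zfp352 depends on 1 KO count.

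Known activators of the state did not share 1 direction. Duxf3 had 0 counts in all 4 libraries, which allows up to 3 counts per library, or 0.32 to 0.36 CPM. Duxf3 was named after its values were seen. Dppa2, which encodes an activator of Dux, had 326 and 386 counts in WT and 745 and 1197 in KO, rising from 38.3 ± 5.19 to 115.5 ± 37.1 CPM (log2 fold change 1.59 ± 0.30 SE, edgeR FDR 0.018). Its partner Dppa4 had 676 and 859 against 1512 and 1606 counts and rose as well (log2 fold change 1.17 ± 0.25 SE, edgeR FDR 0.026). Tbx3, a T-box factor linked to Zscan4 activation, had 3565 and 2744 counts in WT and 1050 and 1432 in KO and fell (log2 fold change -1.20, edgeR FDR 0.032). Gata2, a GATA factor gene, went from 68 and 47 counts to 13 and 8 (log2 fold change -2.29, edgeR FDR 0.033). KO library F lay under the level of the expression filter, so Gata2 reached the test through its WT counts alone. The remaining 2 tested activators, Trp53 (edgeR FDR 0.55) and Nelfa (edgeR FDR 0.83), did not pass. The fall of the members thus stood beside higher counts of Dppa2 and Dppa4 in the same libraries. None of these 4 calls held without KO library F (edgeR FDR 0.0925 to 0.143). Without KO library B, Dppa4 (edgeR FDR 0.10) and Tbx3 (edgeR FDR 0.29) also lost theirs, and without WT replicate 1 Gata2 did (edgeR FDR 0.0565).

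The 28 repressors include histone methyltransferases, the CAF-1 histone chaperone and a variant Polycomb complex. Among them edgeR and limma voom called none and DESeq2 called 1, Ehmt1. An unadjusted edgeR p under 0.05 was found for 2 of the 28, beside 3777 of all 15517 tested genes. The median log2 fold change of the repressors was 0.29. KO was above WT without overlap in 12 of them and below in 2, where 26.0% of all tested genes were above. Ehmt1, of a histone H3 methyltransferase, averaged 61.6 ± 14.5 CPM in WT and 113.7 ± 9.37 CPM in KO, a log2 fold change of 0.88 with an edgeR FDR of 0.077. For Mga, a scaffold of the variant Polycomb complex, the log2 fold change was 0.92 (edgeR FDR 0.19), for Zfp281 0.86 (edgeR FDR 0.26) and for the chromatin remodeler gene Smarcad1 0.60 (edgeR FDR 0.32). Without WT replicate 1, 7 repressors were called higher, these 4 with Rif1, Smchd1 and Sumo2, and the share of all genes called higher was 7.09% in that fit.

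**Figure D4:**
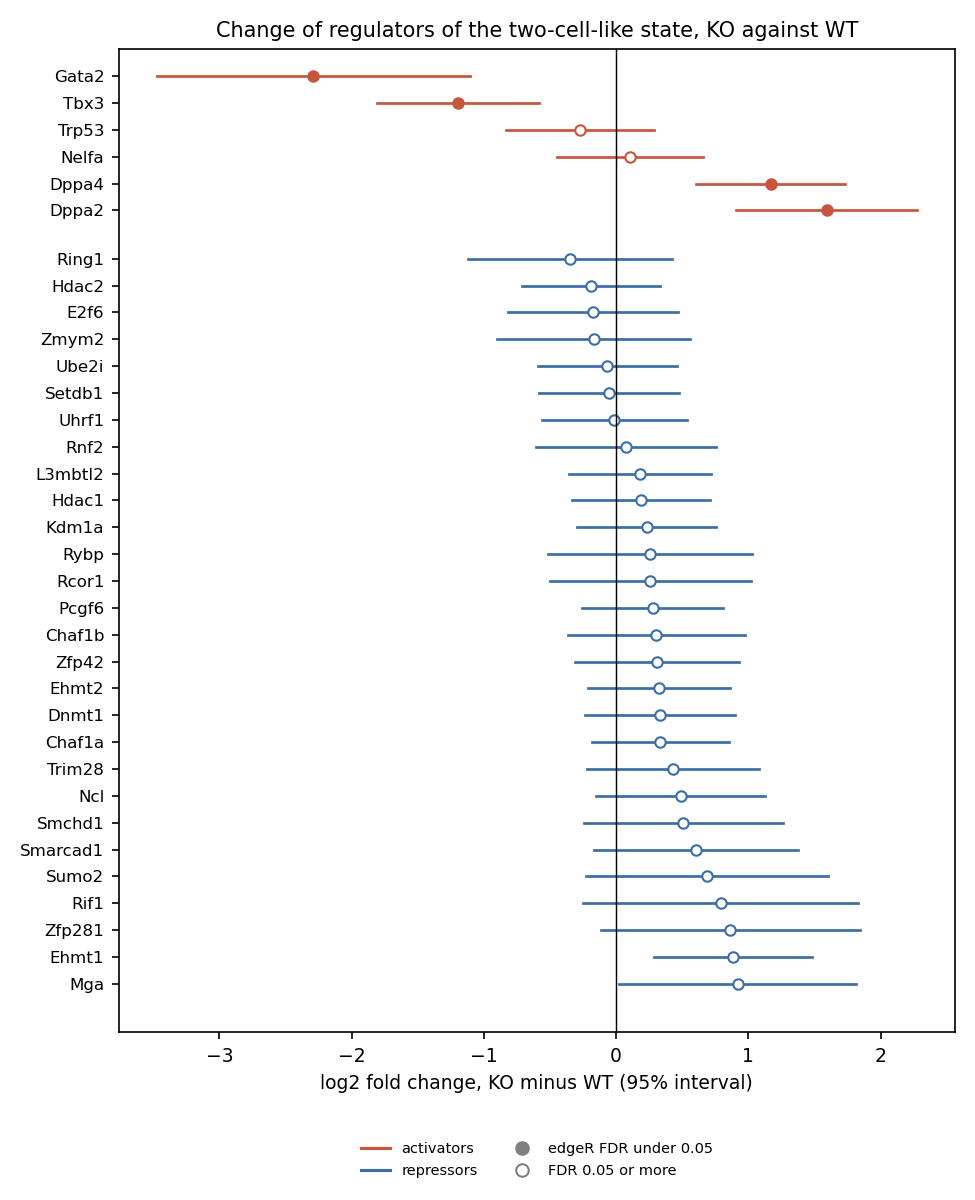
Log2 fold change, KO minus WT, with its 95% interval (x axis) for 6 tested activators (red) and 28 repressors (blue) of the two-cell-like state; filled points have an edgeR FDR under 0.05. Dppa2 and Dppa4 lie above 0 and Tbx3 and Gata2 below, while repressors range from -0.35 (Ring1) to 0.92 (Mga).

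Telomere maintenance genes, listed because ZSCAN4 acts there, gave no call in edgeR, limma voom or DESeq2 among 16 tested of 17. Of these, 3 had an unadjusted edgeR p under 0.05, beside 3777 of all 15517 tested genes. Tinf2, of the shelterin complex that caps telomeres, gave a log2 fold change of -0.91 with an edgeR FDR of 0.077, and the shelterin gene Pot1a one of 0.56 (edgeR FDR 0.215). The meiotic genes Smc1b, of cohesin, and Dmc1, of a recombinase, stood at 0.98 (edgeR FDR 0.097) and 0.84 (edgeR FDR 0.11). Spo11, of the enzyme that cuts DNA in meiosis, had 2 and 3 counts in WT and 0 in KO and was not tested.

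Genes beside the members were read to see whether whole stretches of chromosome moved with them. Of 64 tested genes in no list within 1 Mb of a member locus, 8 (12.5%) were lower in KO and none was higher, beside 5.34% and 2.96% of all tested genes. Their median log2 fold change was -0.17. Near Gm8300 lay 5 of the 8, namely Ism2 (log2 fold change -2.20), Gm8332 (-2.59), Gm1995 (-2.57), Gm7104 and Gm8655, and 4 of these 5 are predicted genes. Near the Tcstv genes Gm21818 (log2 fold change -2.40) and Gm21761 (-2.38) were lower, and near Usp17la and Usp17lb the lysosomal peptidase gene Tpp1 (-1.15), all 8 with an edgeR FDR between 0.012 and 0.042. These 8 were named after their values were seen. Among them Gm7104 (mean 1.29 CPM in WT and 0.06 in KO) and Gm8655 (1.40 and 0.06 CPM) reached the test through their WT counts alone. They had to differ to be there, so the 12.5% is partly shaped by the filter. By position, Gm21818 and Gm21761 lay between Tcstv1 and Tcstv3. Gm1995, Gm8332, Gm7104 and Gm8655 lay among or beside listed two-cell-like genes on chromosome 12, with Gm8332 and Gm7104 on either side of Gm5662. Ism2 and Tpp1 lay outside such arrays. The 12.5% thus includes genes within the two-cell-like arrays and is no measure of the chromosome around them. The Zscan4 array had 1 such neighbour, which was not called, and Usp17lc had 7, of which 4 also lay near Usp17la and Usp17lb, and Zfp352 had 3, with no call among them.

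No HiChIP anchor lay within 10 kb of any of the 10 genes in either pool, whereas 60.5% of 14137 tested genes with a position had one in the WT pool and 80.9% in the KO pool. Overlapping the gene, the share was 51.2% in the WT pool and 73.3% in the KO pool. Within 50 kb it was 76.5% and 90.6%, against 1 of the 10 members in WT and 3 in KO. The pools differed in depth, with 35189 paired-end tags on 8373 anchors in WT and 401726 on 18293 in KO, and each has no replicate. Of these tags, 11603 in WT and 164921 in KO had both ends in 1 anchor. The nearest anchors to the Usp17l genes were 537 to 823 kb away in WT and 486 to 614 kb in KO. In the Zscan4 array the nearest one to Zscan4d was 12.7 kb away in KO and 1122 kb in WT. Gm8300 had an anchor at 41.4 kb in both pools, with 1 tag in WT and 35 tags in KO. Tags in repeated gene arrays can fail to align to 1 place, and the part of this in the missing anchors was not tested.

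The 5 other genes with the expression pattern nearest to the mean of the 8 tested members, by Euclidean distance between centred log2 CPM values over the 4 libraries, were Tgfb2 (distance 0.078), Calhm5 (0.12), AI464131 (0.14), Ccn1 (0.14) and Dok1 (0.14). The nearest, Tgfb2, had 23 and 25 counts in WT and 3 in each KO library, and reached the test through its WT counts alone. Ccn1 had 224 and 246 counts in WT and 43 and 46 in KO. With 4 libraries this likeness is mainly a like fall between genotypes.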

How the data were processed

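The deposited gene counts are raw whole numbers of reads per Ensembl gene. HiC-Pro 2.11.4, DESeq2 1.18.1, HTSeq 0.9.1 and HISAT2 2.1.0, with the build mm10, are named in the submitters' processing notes. The sources used here do not give the annotation release, strand setting, read filters or loop caller. Reads of a gene and an antisense partner therefore cannot be told apart. WT columns carry the labels' replicate numbers, and KO columns the letters B and F. Nothing says that the libraries came from separate cultures beyond the labels' words biological replicates, and p-values measure the spread between these libraries.

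The test was the quasi-likelihood test of edgeR 4.0.16 (R 4.3.3) with a single genotype term, TMM factors and filterByExpr at a minimum count of 10 and a total of 15, which left 15517 genes, with Benjamini-Hochberg FDR at 0.05. Intervals are 95%. Symbols matched 52403 of 52636 identifiers. Positions and promoters came from RefSeq (GRCm38.p6). Gene lengths of transcripts were not used, so levels are not compared between genes. The test was tried on simulated data first. Members, lists and tests were chosen with earlier results of these data known. Named are the 10 members, Klf4, up to 4 genes per list with the smallest p, and the 5 genes nearest in pattern. Named outside this rule, after their values were seen, are Duxf3, Trp53, Nelfa, Ring1, Rif1, Smchd1, Sumo2, Spo11, Usp17ld, Usp17le, Zscan4e and Zscan4-ps2. The same holds for the Y-linked genes, the neighbouring genes and the marker genes at 0. Alternatives were RLE factors, library totals, DESeq2 1.42.0, limma 3.58.1 voom, other filters and leaving out each library.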

Additional observations from a re-analysis of the deposited data

How the results depend on the processing

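With no expression filter, no member, no family and none of the other listed two-cell-like genes passed (0 each), although 9 of the 10 members had an unadjusted p under 0.05, and edgeR called 1 gene lower and 1 higher in all. That setting tested 27254 genes. The 7 calls of single members were kept under RLE factors, library totals, limma voom and a filter of 1 CPM in 2 libraries. DESeq2 also called 7, with Zscan4f (adjusted p = 0.044) in place of Zfp352. Leaving out 1 library gave 5 to 8 members, 1 to 2 families and 7 to 15 of the other two-cell-like genes, and the lone library of a genotype is then assumed to vary like the other group. The lowest numbers of members came without KO library B and without KO library F. The share of all tested genes called lower also fell in both of these fits, and it rose without either WT replicate. The genes tested changed as well, and the highest number of members includes Tcstv3, which the main fit did not test. The numbers of calls are therefore not a like-for-like comparison between fits. Every tested member kept its direction in every setting run. Within 500 kb of a member, 4 of 30 neighbouring genes (13.3%) were called against 8 of 64 (12.5%) within 1 Mb. With anchors taken within 50 kb, 1 member had one in the WT pool and 3 in the KO pool, and with anchors overlapping the gene there were 0 in both. No paired analysis was possible because the KO columns carry letters and no replicate number. Low counts limit what can be said of Tcstv1, Tcstv3 and Zfp352. For Duxf3 and other genes at 0, low depth and reads set apart for several alignments cannot be told apart.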
